A study of Arabidopsis thaliana with 4 samples.

Results

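Mock-treated Arabidopsis roots were compared between 6 d and 2 d on plates, that is, without the fungus, to describe which genes differed in signal with seedling age or time on the plate. The comparison uses the 2 arrays labelled as mock (agar plug without hyphae) of the 4 arrays of the series, 1 for each time point. The other 2 arrays, from roots exposed to the root-colonizing fungus Piriformospora indica for 2 d and 6 d, form a second pair that shares no array with the mock pair, and their values are given beside those of the mock pair. All seedlings were Columbia wild type and had been moved onto nylon membranes on solid nutrient medium under continuous light, and according to the labels they were 12 d old on the 2 d arrays and 16 d old on the 6 d arrays. With 1 array per time point there is no replicate, no error between roots can be given and no test was made, so all differences are sizes between these arrays. None of the sources used here says whether RNA of several experiments was pooled on an array. Time on the plate, seedling age and the set of arrays cannot be told apart, since both 2 d arrays stand on one side and both 6 d arrays on the other. The tissue label of all 4 arrays is root, but the labelled extraction covers shoots as well as roots and the free description speaks of embryos. In RNA of a whole organ fewer cells of a type and less RNA per cell cannot be told apart.

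The root of a young seedling keeps growing at its tip, forms hairs and side roots, and in light also holds green plastids. Most proteins of these plastids are coded in the nucleus, while the small plastid genome codes for core subunits of the photosystems, of the ATP synthase and of the plastid's own ribosomes and RNA polymerase. Roots also make terpenes, beta-glucosidases and cell wall proteins that are typical of this organ. Of the root marker genes looked for, PYK10, the main beta-glucosidase of the root, had signals of 3098 and 3864 on the 2 d and 6 d mock arrays, and EXPA7, an expansin of root hairs, had 202 and 150.3. The guard cell gene FAMA (8.8 and 8.6) and the leaf gene YAB3 (0.7 and 8.0) lay under the floor described next on both arrays. The other root, guard cell, leaf and embryo markers had no probe set with 1 gene name in the annotation used here.

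Signals on the ATH1 array are linear MAS5 intensities, and a probe set is the group of short probes that reads a gene. A floor of 22.2, the mean of the arrays' 40th percentiles, was set under all signals, and a probe set was counted when the brighter mock array lay above it. If the dimmer array was under the floor, only a bound can be given and the fold carries the words "at least". The 4 arrays had 59.8% to 60.3% of their probe sets above the floor, and the log2 75th percentiles spanned 0.025.

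Many of the control probe sets differed between the arrays of the 2 time points, in the same way for mock-treated and exposed roots. All 18 probe sets of the hybridization controls, bacterial and phage transcripts added in fixed amounts, were brighter on the 6 d mock array, with a median log2 ratio of 0.54 (range 0.22 to 2.42). The largest of these differences belonged to bioC. The 5′ end of actin had signals of 153.6 on the 2 d mock and 34.0 on the 6 d mock array, whereas its 3′ end had 1227 and 1162. Hence the 3′/5′ ratio of actin was 7.99 at 2 d and 34.2 at 6 d in mock, and 6.54 and 29.5 in exposed roots. For GAPDH, a glycolytic enzyme, this ratio was 0.725 and 1.58 in mock, and for ubiquitin it was 1.86 and 2.64. The second set of probe sets for the same transcripts differed less, with mock ratios of 1.77 and 3.69 for actin, 0.999 and 1.12 for GAPDH and 0.961 and 1.08 for ubiquitin. The probe set of 25S rRNA had 78.1 at 2 d and 1116 at 6 d in mock, and 28.6 and 1129 in exposed roots. These values move with every difference reported below, and their part in the results was not tested.

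**Figure D1:**
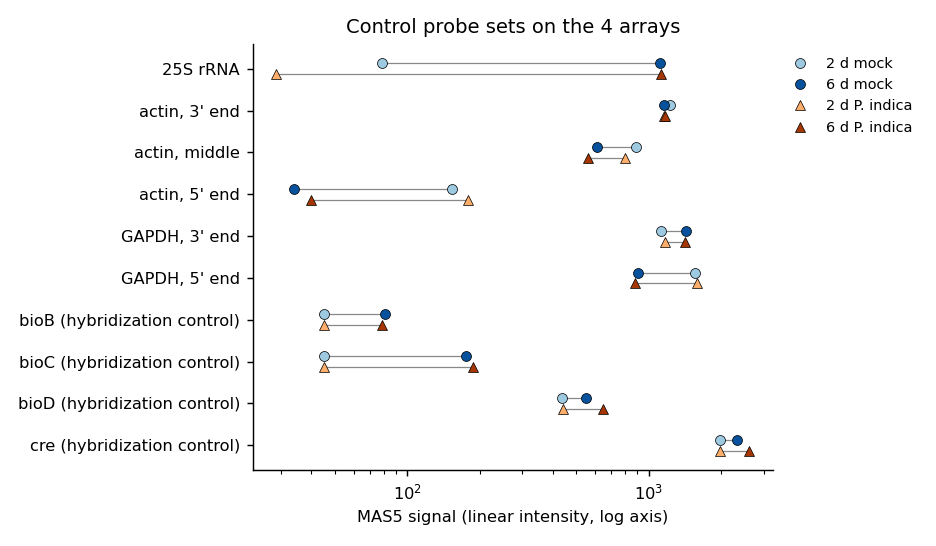
Signals of 10 control probe sets (rows) on the 4 arrays (log axis). Circles are mock-treated and triangles P. indica-exposed roots, light symbols 2 d and dark symbols 6 d, and grey lines join the 2 time points. The 25S rRNA and hybridization control symbols of 6 d lie to the right of those of 2 d, and the actin 5′ symbols of 6 d lie to the left, in both pairs.

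Of 14242 probe sets counted in the mock pair, 27 (0.19%) were more than 3-fold higher and 94 (0.66%) more than 3-fold lower at 6 d. Plastid-encoded genes, with 55 of their 69 probe sets counted, provided 30 of the 94 and none of the 27. A further 31 of the 94 and 11 of the 27 were probe sets of single nuclear genes, 1 lower probe set was mitochondrial (ccb382), and 32 and 16 had no single gene name. With 1 probe set taken per gene, the one with the highest mean signal, 7564 of 13264 named nuclear genes were counted. Of these, 11 (0.145%) were more than 3-fold higher and 20 (0.264%) more than 3-fold lower, and at 2-fold the numbers were 78 (1.03%) and 142 (1.88%). The nuclear genes as a whole were evenly split, with 50.9% above a log2 ratio of 0 and a median of 0.01. These counts hold on the scale on which the authors deposited the values. Dividing each array by its hybridization controls shifted the median nuclear log2 ratio by -0.83 and turned the split of 27 higher and 94 lower probe sets into 9 and 723, so that directions below are relative to the median nuclear gene.

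The genes higher at 6 d included several that code for enzymes of specialized metabolism. The share of such enzymes among all nuclear genes counted was not computed. AT1G52820, which codes for a dioxygenase of the 2-oxoglutarate-dependent family, had signals of 7.9 at 2 d and 172 at 6 d in mock and of 21.8 and 312 in exposed roots. This is at least 7.76-fold in mock and at least 14.1-fold in exposed roots, the highest ratio of a nuclear gene in both pairs. A pair of genes of the terpene synthase family, whose enzymes make terpenes, were also higher: AT3G32030 had 36.6 and 156.5 in mock (4.28-fold higher), and AT3G29410 had 114.1 and 463 (4.06-fold). In exposed roots their signals were 58.3 and 137.1, and 168.7 and 453, so that both 6 d arrays lay above both 2 d arrays. The probe set of AT3G32030 carries a suffix for possible cross-hybridization. AT5G38980 went from 31.3 to 132.5 in mock (4.23-fold higher) and from 32.8 to 202 in exposed roots. AT4G14060, of the Bet v 1 family, had 74.2 and 265 in mock (3.57-fold higher) and 75.9 and 341 in exposed roots. UGT88A1, a glycosyltransferase, had 74.3 and 191.2 in mock (2.57-fold), and CCOAMT, a caffeoyl-CoA O-methyltransferase, had 18.3 and 60.3 (at least 2.72-fold). Genes of similar fold in mock that were not placed in this group were AT1G11330 (2.80-fold), AT4G04990 (2.75-fold), AT2G16005 (2.69-fold) and AT1G63100 (2.69-fold). The same holds for AT3G14340 (at least 2.87-fold), AT3G07540 (2.59-fold), AT2G46100 (2.55-fold) and AT4G22640 (2.55-fold).

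A second set of higher genes had low signals only on the 2 d mock array. AT1G26380 and the neighbouring AT1G26390, which code for oxidases related to the berberine bridge enzyme, had 15.4 and 13.5 on the 2 d mock array and 122 and 92.7 on the 6 d mock array, at least 5.51-fold and 4.18-fold higher. On the exposed arrays AT1G26380 had 298 at 2 d and 380.1 at 6 d, and AT1G26390 had 424 and 410.4. AT5G38910, a germin-like cell wall protein gene, had 5.9 and 81.1 in mock and 546.5 and 435.5 in exposed roots, and AT1G19960 had 15.3 and 111.4 in mock and 146.1 and 140.7 in exposed roots. These are 4 of the 11 nuclear genes more than 3-fold higher, and for all 4 the 2 d exposed array lay above the 6 d mock array. The 6 d exposed array was still above the 6 d mock array, 5.37 times for AT5G38910, 4.43 times for AT1G26390, 3.11 times for AT1G26380 and 1.26 times for AT1G19960. AT5G04120, a member of the phosphoglycerate mutase family, was also higher in the mock pair alone, with 21.3 and 91.7 (at least 4.13-fold) against 36.9 and 41.0 in exposed roots. AT4G32950, a PP2C protein phosphatase gene, had 54.3 and 220.5 in mock (4.06-fold) and 108.5 and 178.3 in exposed roots.

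Genes of the photosynthetic apparatus coded in the nucleus were mostly higher at 6 d, by less than 3-fold. PORB, the light-dependent protochlorophyllide oxidoreductase of chlorophyll synthesis, had 41.3 and 120.7 in mock (2.92-fold higher) and 50.3 and 170.8 in exposed roots. It had the highest ratio of the 3 counted genes in the chlorophyll synthesis list. The others were CHLM, with 122 and 156.8 in mock, and HEMA2, which was slightly lower (42.7 and 39.6). PSAE-1, a subunit of photosystem I, had 83.6 and 212 in mock (2.54-fold) and 76.7 and 280.2 in exposed roots. The antenna protein gene LHCB4.3 had 22.8 and 59.3 (2.60-fold). PRK and SBPASE, enzymes of the Calvin cycle, had 22.3 and 51.2 (2.30-fold) and 22.6 and 49.5 (2.19-fold), with 2 d signals at the floor. Of the 53 genes in the photosynthesis list 10 had a named probe set and all 10 were counted. In the mock pair 9 of these had a ratio above 0, 3 exceeded 2-fold, all of them higher, against 1.03% of all nuclear genes higher. Their median log2 ratio was 0.61 (range -0.02 to 1.35), beside 0.01 for all nuclear genes counted. Of leaf and guard cell markers 2 had a named probe set, FAMA and YAB3, and both were under the floor on both mock arrays. These 2 genes alone cannot show whether shoot tissue was present, which was not tested. At the low end of the list, RCA, the activase of Rubisco, had 201 and 198.6, and PSBY had 127.5 and 135.7. The ratio of each of the 10 genes was larger in the exposed than in the mock pair, where 8 of 10 were more than 2-fold higher and the median was 1.54, beside 1.58% of nuclear genes. With the floor at the 60th percentile PRK, SBPASE and LHCB4.3 no longer differed, because their mock signals lay under it.

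Plastid-encoded genes went the other way. The median log2 ratio of their 55 counted probe sets was -1.98 in the mock and -1.76 in the exposed pair, and 38 of 55 were more than 2-fold lower in mock, beside 2.35% of all probe sets counted. atpA, a subunit of the plastid ATP synthase, had 599 at 2 d and 25.6 at 6 d in mock (23.4-fold lower) and 488 and 34.4 in exposed roots. atpB of the same complex had 1462 and 137.1 in mock (10.7-fold lower), and petB of the cytochrome b6f complex had 1386 and 192.1 (7.21-fold). cemA, psbK and psbH, the first an envelope protein and the others photosystem II subunits, were at least 15.3-fold, 12.7-fold and 11.2-fold lower. All 30 plastid-encoded probe sets that were more than 3-fold lower in mock were more than 2-fold lower in exposed roots, and 29 of them more than 3-fold, where 0.277% of the nuclear genes were.

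Within the plastid genome the differences were uneven. atpE, of the same ATP synthase as atpA and atpB, had 995.7 and 419 in mock (2.37-fold lower). psbM, of photosystem II, had 1108 and 1861 in mock (1.68-fold higher) and 601 and 2621 in exposed roots. rpoA, a subunit of the plastid RNA polymerase, had 382 and 859 in mock (2.25-fold higher) and 271.5 and 601 in exposed roots, whereas rpoC1 of the same polymerase had 135.5 and 24.2 in mock. The ribosomal protein gene rps3 was level, with 464.5 and 500.2. Only 5 of the 55 had a ratio above 0 (psbM, rpoA, rps3, ndhC and psbZ). The 5 mitochondrial probe sets counted had a median log2 ratio of -0.81 in mock and -0.73 in exposed roots. The 25S rRNA signal, the actin 3′/5′ ratio and the hybridization controls given above separate the same arrays.

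**Figure D2:**
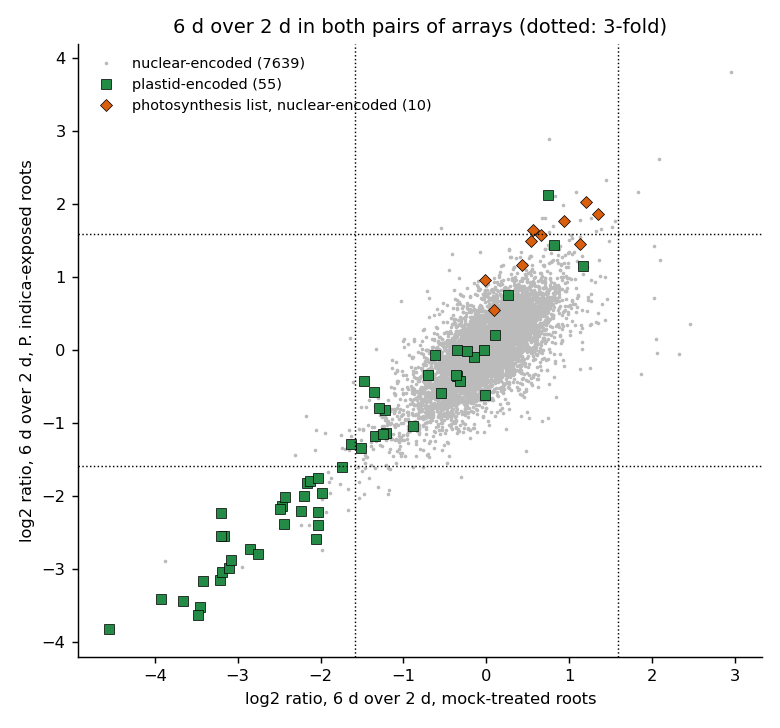
Log2 ratio of 6 d over 2 d in mock-treated roots (x axis) and in P. indica-exposed roots (y axis) for probe sets counted in the mock pair, with 3-fold marked by dotted lines. Grey points are 7639 nuclear-encoded probe sets, green squares 55 plastid-encoded ones and orange diamonds the 10 counted genes of the photosynthesis list. Most squares lie to the lower left, down to -4.55 in mock, and all diamonds lie above 0 on the y axis.

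The largest differences among nuclear genes lower at 6 d were those of AT4G12500 and AT4G12490, which code for proline-rich proteins of the lipid transfer type. AT4G12500 had 326 on the 2 d and 18.3 on the 6 d mock array (at least 14.7-fold lower), and 165.0 and 7.8 on the exposed arrays. AT4G12490 had 248 and 15.5 in mock (at least 11.2-fold lower) and 273 and 6.1 in exposed roots. Both genes were thus far above the floor at 2 d and under it at 6 d, in both pairs. STZ (also ZAT10), a zinc finger repressor known to respond quickly to stress, had 354 and 71.6 in mock (4.94-fold lower) and 330.0 and 122 in exposed roots. BZIP61, a bZIP transcription factor gene, had 93.6 and 28.6 (3.27-fold lower). TPS-CIN, the 1,8-cineole synthase of roots, had 214 and 45.5 in mock (4.69-fold lower) and 203 and 38.5 in exposed roots, in contrast to the terpene synthase genes that were higher. It has a near-identical neighbour, so that its signal may be that of both genes. AT4G07820, of the family of pathogenesis-related protein 1, had 233 and 51.6 in mock (4.52-fold lower) and 178.4 and 95.1 in exposed roots. ICL, the isocitrate lyase of the glyoxylate cycle, which serves the use of stored fat, had 92.9 and 22.3 in mock (4.17-fold lower) and 47.3 and 19.5 in exposed roots. The class III peroxidase gene AT5G64120 was the brightest of the lower genes past 3-fold, with 663 and 209.9 in mock (3.16-fold lower) and 839 and 324 in exposed roots.

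The other nuclear genes more than 3-fold lower code for unlike proteins. AT4G27640, an importin, which carries proteins into the nucleus, had 127.0 and 28.9 (4.39-fold lower). AT2G45670, an acyltransferase of phospholipids, had 185.6 and 50.3 (3.69-fold), AT2G39130, an amino acid transporter, 133.2 and 39.1 (3.41-fold), and AT1G03740, a protein kinase, 88.7 and 26.6 (3.33-fold). AT5G17350, AT4G27652, AT4G24290 and AT4G29780 had 2 d signals of 93.3, 218.6, 96.5 and 80.5 and 6 d signals of 12.4, 56.7, 28.8 and 25.5. AT2G07751 (186.2 and 50.7) lies in the copy of mitochondrial DNA on a nuclear chromosome and its probe set carries a cross-hybridization suffix, so the transcript read there may be mitochondrial. AT4G35335, of the nucleotide sugar transporter family, had 146.5 and 39.4 on one probe set and 77.6 and 60.1 on another. AT5G56100 and GAT1_2.1, named after their values were seen to complete the 20 genes, had 84.3 and 27.0, and 83.6 and 27.3, in mock. They differed less in exposed roots, with 44.8 and 50.2 for AT5G56100 and 103.4 and 75.9 for GAT1_2.1. For 19 of the 20 genes both 2 d arrays lay above both 6 d arrays, AT5G56100 being the exception. The same held in the opposite direction for 7 of the 11 genes more than 3-fold higher. The order within the mock pair was fixed by the choice of these genes. The share of all nuclear genes with such an order was not computed.

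**Figure D3:**
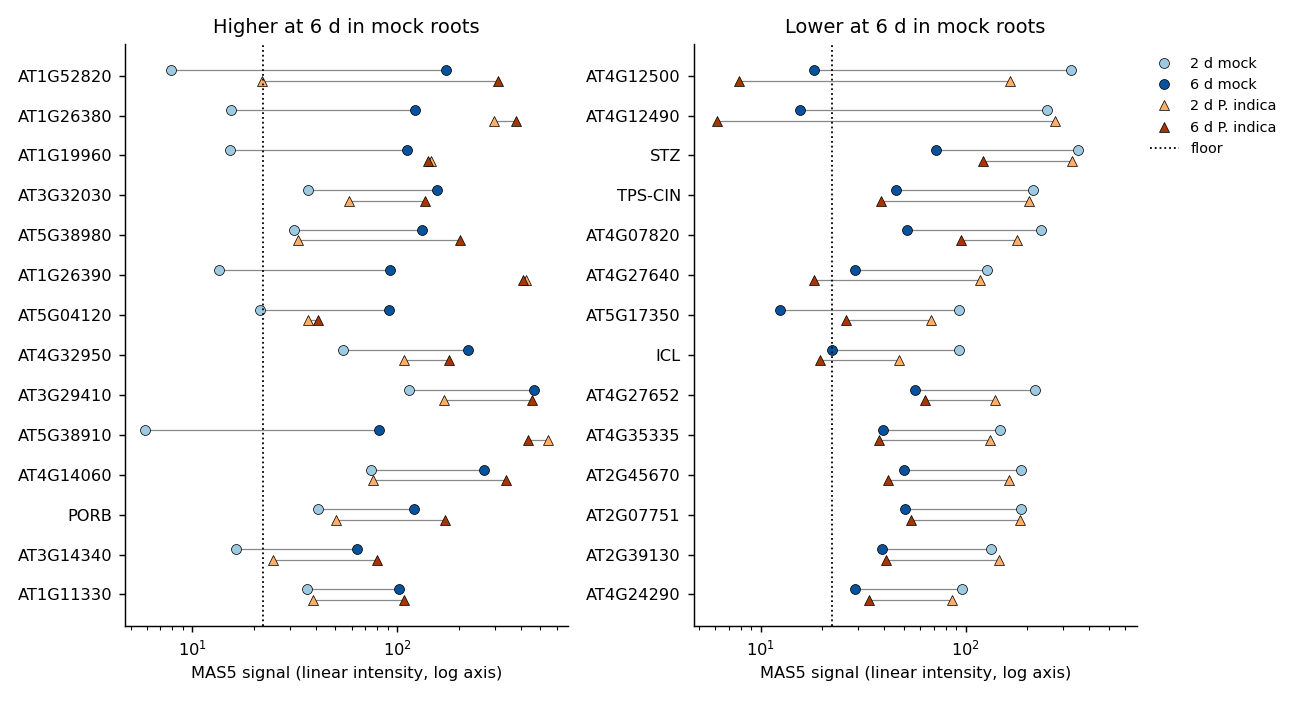
Signals (log axis) of the 14 nuclear genes with the largest ratio in each direction, higher at 6 d in mock on the left and lower on the right. Circles are mock-treated and triangles P. indica-exposed roots, light 2 d and dark 6 d, lines join the time points, and the dotted line is the floor of 22.2. For AT1G26380, AT1G26390, AT1G19960 and AT5G38910 both triangles lie to the right of the dark circle.

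Different probe sets of a gene did not always show the same difference. Among the 7564 nuclear genes, 74 had more than 1 counted probe set, and the lowest and highest ratio of a gene lay a median of 0.89 apart on the log2 scale, with 28 genes over 2-fold and 11 over 3-fold apart. In 12 of these 74 genes 1 probe set was more than 3-fold lower, beside 19 of the 7490 nuclear genes read by 1 counted probe set. In none of the 12 was the other one more than 2-fold lower. For 10 of the 12 the other probe set was within 1.5-fold of its 2 d signal, and for 11 it was the brighter one, so that only AT4G35335 entered the 20 genes above. AT4G16180, for example, had 183.7 and 23.7 in mock on one probe set and 146.1 and 177.8 on the other, and AT2G07360 had 116.5 and 29.5, and 264 and 313.5. The exposed pair gave log2 ratios of -2.97 and 0.07 for the probe sets of AT4G16180 and -2.75 and 0.25 for those of AT2G07360. Hence 12 of the 31 nuclear probe sets more than 3-fold lower belonged to genes with a second probe set that was not more than 2-fold lower, the nearest being that of AT3G15240 (128.0 and 68.6, 1.87-fold lower), and 19 to genes read by 1 counted probe set. Which end of the transcript a probe set reads was not available here, and the part of the actin 5′ difference in these values was not tested.

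**Figure D4:**
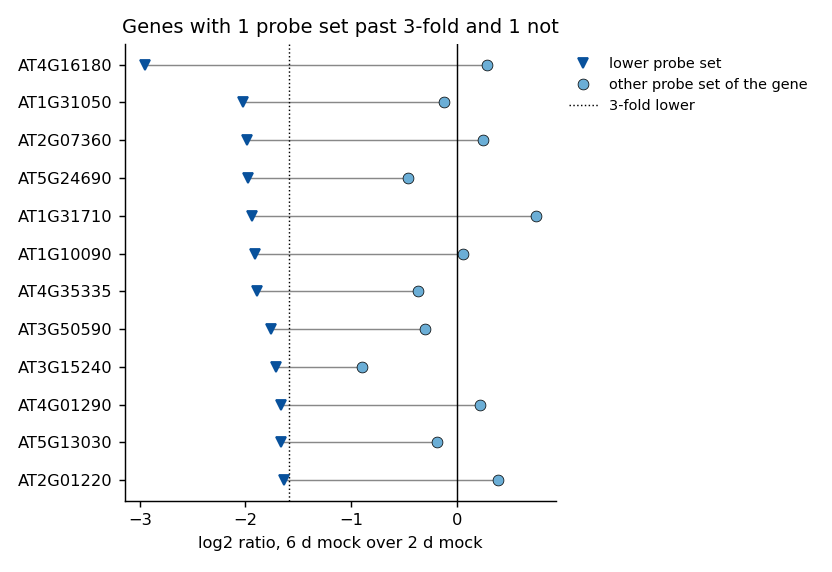
Log2 ratio of 6 d mock over 2 d mock for the 12 nuclear genes with 1 probe set more than 3-fold lower (triangles, left of the dotted line) and another that was not (circles). The circles lie between -0.90 and 0.75, and grey lines join the probe sets of a gene.

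In the lists of cell wall loosening and of root hairs 1 of 15 and 1 of 4 counted genes were more than 2-fold lower at 6 d in mock. Of 31 expansin and XTH genes listed, whose proteins loosen the wall or remodel xyloglucan, 16 had a named probe set and 15 were counted. Their median log2 ratio was -0.15 in mock, 11 of 15 lay below 0, and EXPB1 was the only one more than 2-fold lower (163.9 and 80.1), beside 1.88% of all nuclear genes. EXPA15 had 331 and 199.7, EXPA4 had 660 and 445, and EXLB1 had 159.0 and 114.1. The exposed pair gave a median of -0.30, with 2 of 15 more than 2-fold lower, beside 2.15%. When expansins were instead collected by their annotated names, 13 were counted with a median of -0.43, and 2 were more than 2-fold lower: EXPB1 and EXPA9, which is not in the list and had 327 and 118.5 in mock (2.76-fold lower) and 295 and 108.2 in exposed roots. In the root hair list, XTH26 was lower (51.7 and 22.7 in mock, 87.5 and 12.7 in exposed roots), while SCN1, which restricts hair initiation, had 357 and 408, and EXPA18 had 233 and 229. The median of its 4 counted genes was -0.23 in mock and -0.76 in exposed roots, and its mock value less the nuclear median was -0.02 under the 60th-percentile floor.

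The remaining lists with 3 or more counted genes had medians between -0.21 and 0.36, and on the floored scale only PORB and CML38 exceeded 2-fold in mock. Few of the listed genes were counted: 3 of 30 for cell cycle, 3 of 27 for abscisic acid and 3 of 33 for auxin. Immunity had 3 of 32, iron and zinc 3 of 33, glucosinolates 5 of 31 and phenylpropanoids and flavonoids 6 of 31. The medians therefore describe the counted genes and not these functions as a whole. DFR, AT3G12900 (5.9 and 32.4) and AT4G14090 (1.1 and 25.3) were under the floor at 2 d, so that their ratios are bounds. Genes of glucosinolate synthesis and their beta-glucosidases gave 0.28 (4 of 5 above 0): BCAT4, which starts the chain elongation of methionine, had 605 and 796, and the glucosyltransferase gene UGT74B1 had 270.3 and 328.5. Phenylpropanoid and flavonoid genes gave 0.02, with DFR of anthocyanin synthesis at 9.3 and 37.3 (at least 1.68-fold) and CHIL, a chalcone isomerase-like protein, at 678 and 549. For cell cycle genes the median was 0.05, and the mitotic kinase gene AUR1 had 112.5 and 135.7. Genes of abscisic acid and water deficit gave 0.13, and the dehydrin genes COR47 and LTI30 had 2412 and 2634, and 1794 and 1976. The iron and zinc list gave 0.20, in which the transcription factor gene PYE (39.7 and 24.8) was the 1 of 3 counted genes below 0. Auxin genes gave -0.00, with LBD16, a regulator of side root initiation, at 41.3 and 21.1. Immunity genes gave -0.19, with WRKY53 at 27.3 and 23.2 and GRX480 at 40.9 and 35.8. The chitinase gene CHI was the 1 of 3 counted genes above 0, with 73.1 and 107.6 in mock and 447 and 344 in exposed roots. The 4 reference genes counted had a median of 0.09, with GAPC2 at 2891 and 3385, PEX4 at 233 and 257.5, AT4G34270 at 130.6 and 134.8 and AT2G28390 at 134.8 and 91.8. AT2G28390 was thus 1.47-fold lower at 6 d in mock.

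**Figure D5:**
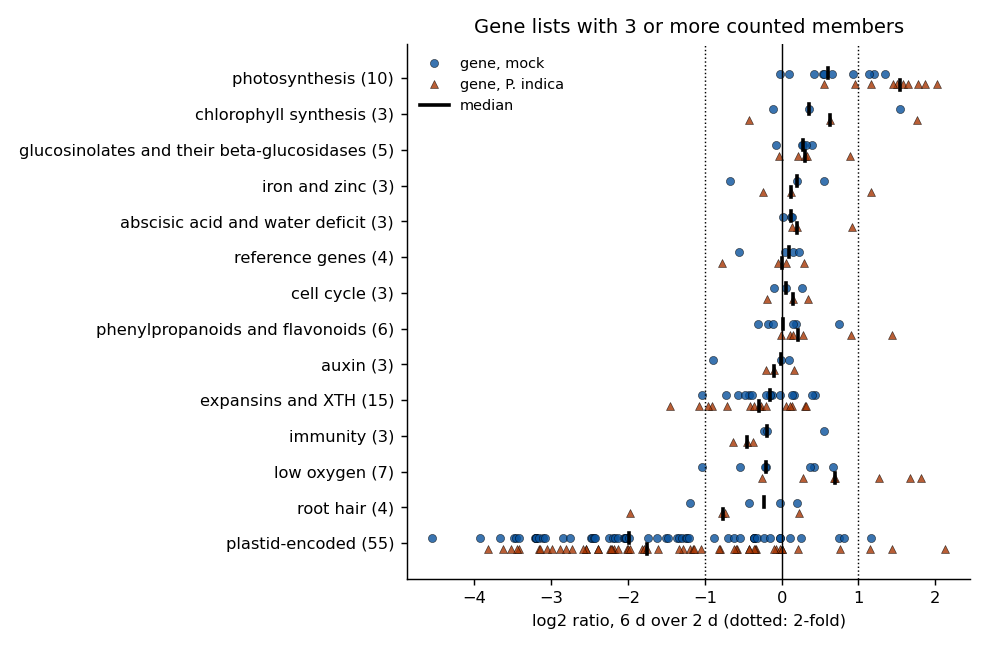
Log2 ratio of 6 d over 2 d (x axis, 2-fold dotted) of each counted gene in the lists with 3 or more such genes and of the plastid-encoded probe sets, with the number of genes in brackets. Blue circles are mock-treated and brown triangles P. indica-exposed roots, and black bars are medians. Photosynthesis has the highest median in mock (0.61), plastid-encoded probe sets the lowest (-1.98), and low oxygen lies on opposite sides of 0 in the 2 pairs.

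The low oxygen list differed in sign between the pairs. Its 7 counted genes had a median log2 ratio of -0.21 in mock, with 4 below 0, and of 0.69 in exposed roots, with 1 below 0. Relative to the nuclear median, the mock value ranged from -0.23 to 0.13 under the other settings tried. AT1G19530 had 287.5 and 196.6 in mock and 88.0 and 280.1 in exposed roots, and CML38, a calmodulin-like protein, had 45.5 and 21.6 in mock and 20.6 and 35.5 in exposed roots, where its 6 d mock and 2 d exposed signals were under the floor. In both genes the 2 d mock array lay well above the 2 d exposed array. PDC2, a pyruvate decarboxylase of fermentation, had 314 and 420.3 in mock and 232 and 374 in exposed roots, and AT1G33055 had 41.1 and 65.6, and 51.8 and 181.5. Of the clock genes, GI had 137.1 and 90.3 in mock and 87.0 and 58.4 in exposed roots, whereas CCL had 77.6 and 56.8 in mock and 34.5 and 73.9 in exposed roots.

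Genes that differed in the mock pair mostly had a ratio of the same sign in the exposed pair, which was not used to choose them. Of the 142 nuclear genes more than 2-fold lower in mock, 138 were lower in exposed roots, beside 46.8% of all nuclear genes. In exposed roots 81 (57%) of the 142 were more than 2-fold lower, beside 2.15% of all nuclear genes. Of the 78 genes more than 2-fold higher, 73 were higher in exposed roots, beside 50.4% of all nuclear genes. In exposed roots 30 (38.5%) of the 78 were more than 2-fold higher, beside 1.58%. Across the 7564 nuclear genes the ratios of the 2 pairs had a Pearson correlation of 0.72 and a Spearman correlation of 0.69. This is across genes, which are not independent replicates, and the pairs share the set of arrays that goes with each time point. Conversely, 13 of 7564 nuclear genes (0.172%) had ratios more than 3-fold apart between the pairs. In 8 of them the mock ratio was the higher, among them AT1G26380, AT1G26390, AT5G38910, AT1G19960 and AT5G04120, and in 5 the exposed ratio, among them AT1G19530, CML38 and AT5G56100.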

How the data were processed

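Root RNA of 4 conditions was hybridized to 1 Affymetrix ATH1 array each. The values the authors deposited cover 22810 probe sets as intensity on a linear scale. MAS5, with no version, is named in the submitters' processing notes, and the 2% trimmed mean was 100.0 on each array. The study's methods name ROBIN, a t-test and a limit of 3-fold; with 1 array per condition no test was possible. The methods speak of 3 independent experiments, whereas the table used here holds 1 array per condition.

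From these, 64 control probe sets were left out. Signals under the floor (22.2) were set to it and log2 ratios of 6 d over 2 d were formed. Probe sets were named through the platform annotation and Entrez identifiers (TAIR10.1): 13484 had 1 gene with a locus code, 503 several genes, 8730 none and 29 a symbol without a locus code. For a gene with several probe sets, the brightest on average in the mock pair stood for it. The 33 lists hold 710 genes, of which 105 had a named probe set and 84 were counted.

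Named genes were, among nuclear genes, the 15 largest differences in each direction with neither mock array under the floor, the 8 largest bounds each way, up to 4 genes of each list and the reference genes, and, among plastid genes, the 6 brightest and the 4 largest differences. Other genes, such as EXPA9, RCA, PSBY, ccb382, rpoC1, AT5G56100 and those with unlike probe sets, were named after their values were seen. Members and lists were chosen with earlier results of these data known. The counting was tested on simulated data with less noise than the differences between probe sets of a gene. Changes were placed only on probe sets far above the floor, so that test does not cover signals near it. Alternatives were other floors, no floor, 32 added to each signal, quantile and loess normalization (span 0.3), centring, scaling to the hybridization controls, limits of 2-fold and 4-fold, and probe sets without cross-hybridization suffix. A motif search in promoters was not run, since no promoter sequence was at hand. The number of arrays limits the precision. Calculations ran in Python 3.11.15 with pandas 2.3.3, numpy 2.4.6, statsmodels 0.14.6 and scipy 1.17.1, and plots in matplotlib 3.10.9.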

Additional observations from a re-analysis of the deposited data

Results flagged for a closer look

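In 10 of the nuclear genes counted the 6 d over 2 d ratio had opposite signs in mock-treated and exposed roots and lay more than 3-fold apart. The mock ratio less the exposed ratio was 2.38 on the log2 scale for AT1G19960, 2.197 for AT5G38910, 2.11 for AT1G26390, 1.87 for AT5G14330, 1.67 for AT3G25950 and 1.64 for AT5G39580. It was -1.71 for CML38 (AT1G76650), -1.73 for AT4G39675, -1.81 for AT5G56100 and -2.22 for AT1G19530. These differences were not tested, since each rests on 4 single arrays, and the signals of AT5G14330, AT3G25950 and CML38 crossed the floor in both pairs. The exposed ratio of AT1G19960 and AT1G26390 was only slightly below 0 (-0.05 in both).

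The control probe set of 25S rRNA, which enters none of the counts, was brighter on the 6 d mock array by 3.84 on the log2 scale and on the 6 d exposed array by 5.30.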

How the results depend on the processing

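The counts depend on the floor and the scale, and so does the direction of some list medians. A floor at the 20th percentile gave 95 higher and 219 lower probe sets past 3-fold, and 289 higher and 296 lower nuclear genes past 2-fold. A floor at the 60th percentile gave 9, 40, 29 and 53 in the same order, and the median of the plastid-encoded probe sets less that of nuclear ones was -1.16 in place of -1.99. With 32 added to each signal they were 11, 44, 19 and 37, and with the hybridization controls as the scale 9, 723, 11 and 2624. Without a floor 1229 probe sets were higher and 1124 lower. A limit of 2-fold gave 160 and 335 probe sets, a limit of 4-fold gave 55 lower ones, and named nuclear genes alone gave 11 and 20. Quantile normalization, loess and centring kept all these counts within 1.5 times. Relative to the nuclear median, photosynthesis lay between 0.47 and 0.61, expansins and XTH between -0.21 and -0.14, and plastid-encoded probe sets between -2.47 and -1.16. Of the 13 list medians 6 changed sign: low oxygen (-0.23 to 0.13), immunity (-0.21 to 0.05), iron and zinc (-0.01 to 0.19), phenylpropanoids and flavonoids (-0.05 to 0.02), cell cycle (-0.01 to 0.05) and abscisic acid (-0.00 to 0.12). The 115 named genes were followed as log2 ratios less the nuclear median. Centring cannot move these values, and scaling to the hybridization controls largely cancels in them. Of the 805 values under 7 alternatives, 755 moved by less than 0.81 on the log2 scale. This limit is the standard deviation of 1 probe set, estimated from genes with 2 of them. The 50 larger moves came from the floor at the 60th percentile (34), the floor at the 20th (9) and the 32 added (7). No gene past 3-fold changed sign. Added after seeing the data, leaving out the genes with the longest gene body (3519 bp and more) gave 62 higher and 99 lower nuclear genes past 2-fold, and leaving out genes with several probe sets 76 and 140. No paired analysis was possible because each condition has 1 array.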

Other observations

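Several gene families collected by their annotated names have not been described above. Glutathione transferases, which conjugate glutathione to reactive compounds, had 11 counted members with a median log2 ratio of 0.14 in mock (range -0.34 to 0.52). Of 24 named cytochrome P450 genes 9 were counted, with a median of 0.35. Of 43 named UDP-glycosyltransferase genes 25 were counted, with a median of 0.07. Among these UGT88A1 alone was more than 2-fold higher, beside 1.03% of all nuclear genes. UF3GT, under the floor at 2 d, was at least 1.48-fold higher (6.7 and 32.8). Among 6 WRKY transcription factor genes, 5 lay below 0 and the lowest was WRKY6, with 141.5 at 2 d and 73.1 at 6 d. Of 20 named beta-glucosidase genes 6 were counted. BGLU16 was the only one of them past 2-fold, beside 1.03% of all nuclear genes higher and 1.88% lower. It had 185.4 and 389 in mock and 202 and 396 in exposed roots. The 5 tubulin genes had a median of -0.02 in mock and of -0.23 in exposed roots.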
